A study of Rattus norvegicus with 6 samples.

Results

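Thbs1, the gene of thrombospondin 1, was followed across cultured rat astrocytes, neurons and oligodendrocyte precursor cells (OPCs). It was taken by its rat Ensembl identifier, ENSRNOG00000045829, as 1 of 26405 genes in the table, and it was picked because its level differed so widely between astrocytes and OPCs. The comparison of OPCs with astrocytes is therefore given as a description, with no test. The name Thbs1 came with the definition of the gene studied, since the table lists identifiers only. RNA of each cell type was sequenced in 2 libraries. The cells were bought from a supplier, under a different catalogue number for each type. Astrocytes and OPCs were kept for 8 days, passaged 1 time and kept for another 6 days. Neurons were kept for 7 days without passage. No treatment or genotype is named for any group, nor the brain region or age of the animals. Effects of cell type, of the product bought and, for neurons, of passage and time in culture cannot be told apart.

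Thrombospondin 1 is a large secreted glycoprotein of the extracellular matrix that works as a homotrimer. It binds cell surface receptors such as CD36, CD47 and integrins, and it can release active TGF-beta from its latent complex. In the developing brain, thrombospondins released by immature astrocytes promote the formation of excitatory synapses between neurons, through the neuronal calcium channel subunit alpha2delta-1, the target of gabapentin. The gene is also well known for its response to serum, to injury and to growth factors, and it is made by many cells outside the brain, among them fibroblasts, endothelial cells and platelet precursors.

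The promoter is shown because the gene's RNA level spanned several orders of magnitude between the cell types. It was matched by symbol in RefSeq and covers the 250 bases before the annotated start, chr3:125510000-125510249 of GRCr8, plus strand. The labels do not name the build behind the counts, so this sequence is background to the gene and was not joined to the counts by position. Capitals mark matches to 3 motifs.

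Thbs1: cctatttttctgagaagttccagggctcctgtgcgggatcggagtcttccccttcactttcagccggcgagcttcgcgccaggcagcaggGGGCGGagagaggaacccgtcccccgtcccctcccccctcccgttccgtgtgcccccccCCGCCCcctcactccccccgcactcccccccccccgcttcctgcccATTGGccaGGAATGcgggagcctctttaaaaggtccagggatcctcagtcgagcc

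In all 6 motifs were searched on both strands, after the sequence had been seen, and the marked matches do not overlap each other. The GC box GGGCGG, the element bound by Sp-type factors, occurred 2 times, starting 160 bases before the start on the plus strand and at 101 bases on the minus strand. It was present in 30.5% of the 33469 promoters of this length. The CCAAT box occurred 1 time, on the minus strand at 55 bases before the start, and 34.0% of promoters held it. GGAATG, the core of sites for TEAD factors, occurred 1 time at 47 bases, and 12.1% of promoters held it. TATAAA, the AP-1 site TGANTCA and the EGR site GCGNGGGCG had no match in this window, and were found in 12.9%, 6.34% and 4.29% of promoters. The window was 67.6% G or C, against a median of 51.2% over all promoters, and its longest run of C was 11 bases. Such matches are descriptions of sequence and show no binding.

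RefSeq also places a long non-coding RNA gene, LOC134486137, on the opposite strand, where it overlaps Thbs1 by 1066 bases. Whether the counting used strand is not recorded in the labels. Reads from the overlap may therefore be assigned to either gene, and the counts below cannot be split between them.

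Library totals ran from 22265917 to 102861667 counts, and 18206 genes passed the filter on low counts and were tested, Thbs1 among them. Levels are in CPM, the count in proportion to library size, scaled with TMM factors between 0.794 and 1.21. Identical counts were found in 0 pairs of libraries. Nothing in the labels tells whether the replicates were grown apart, and the p-values therefore reflect the spread of these libraries alone, which may be technical. Marker genes of the cell types could not be looked up, because identifiers were not paired with names. The labelled cell types were thus not checked against their markers. In bulk RNA, fewer cells that express a gene and less RNA per cell cannot be told apart.

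Thbs1 RNA was abundant in astrocytes, low in neurons and close to the limit of counting in OPCs. Astrocyte replicate 1 held 1134602 Thbs1 counts and astrocyte replicate 2 held 142529, which gave 13901 and 3395 CPM. The neuron libraries held 795 and 93 counts, or 8.69 and 1.61 CPM. The OPC libraries held 10 and 25 counts, or 0.385 and 0.541 CPM. Every astrocyte library lay above every neuron library, and every neuron library above every OPC library. This order without overlap was met by 1127 of the 18206 tested genes (6.19%). Since the gene was chosen for its difference between the first and the last of these cell types, the order is a description.

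**Figure D1:**
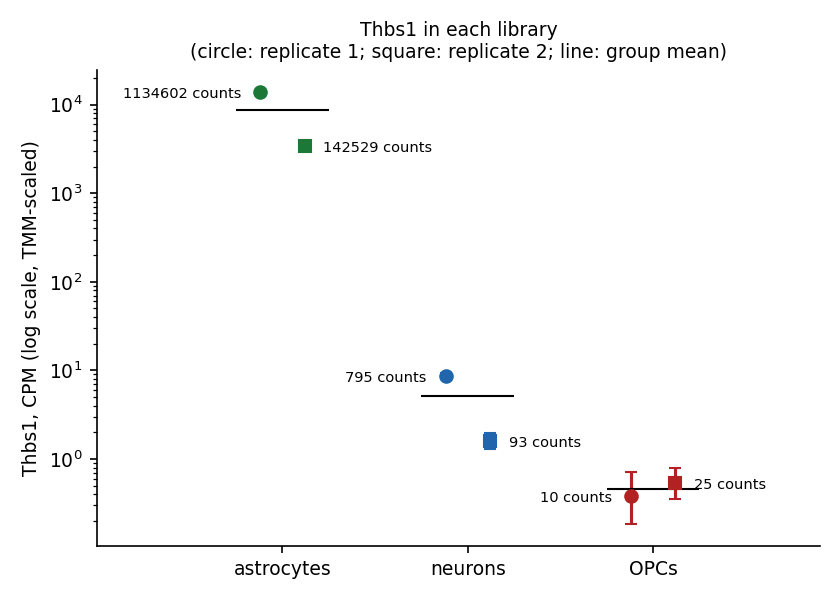
Thbs1 in each of the 6 libraries, as TMM-scaled CPM on a log axis; circles are replicate 1, squares replicate 2, black lines the mean of the 2 replicates, and error bars the exact 95% Poisson interval of counting error. The astrocyte libraries sit at 13901 and 3395 CPM, the neuron libraries at 8.69 and 1.61 and the OPC libraries at 0.385 and 0.541, with no overlap between cell types.

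In astrocytes the Thbs1 transcript was among the most sequenced of all. It took 1.103% of all counts in replicate 1 (95% Wilson interval 1.101 to 1.105) and 0.284% in replicate 2 (0.282 to 0.285). These intervals, like the others given for single libraries, cover counting error only. By count it stood at rank 3 in replicate 1 and at rank 25 in replicate 2. These ranks are of sequenced fragments, not corrected for transcript length, so they order the share of reads and not the number of molecules. The mean was 8648 ± 7429 CPM (SD, n = 2), and only 4 tested genes had a higher mean CPM in astrocytes.

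In neurons the mean was 5.15 ± 5.01 CPM (SD, n = 2). Of the tested genes, 41.2% had a lower CPM in neuron replicate 1 and 24.1% in neuron replicate 2. Measured against the astrocyte mean, the neuron libraries reached 0.1005% and 0.0186%.

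In OPCs the mean was 0.463 ± 0.111 CPM (SD, n = 2). The exact 95% Poisson intervals of the 2 OPC libraries, 0.184 to 0.708 and 0.350 to 0.799 CPM, overlapped. Their 10 and 25 counts lay above a floor of 3 counts, which corresponds to 0.115 and 0.0650 CPM in these libraries. Between 14.1% and 17.1% of tested genes had a lower CPM than Thbs1 there. Counts assigned to Thbs1 were thus present in every library. They made up 1 in 2226592 counts in OPC replicate 1 against 1 in 90.7 counts in astrocyte replicate 1. Reads of the overlapping gene may be among them.

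The astrocyte replicates lay far apart in Thbs1. Replicate 1 was 4.10-fold above replicate 2, a log2 difference of 2.03. Over all tested genes the signed log2 difference had a median of 0.00 and an SD of 0.79. Of the other tested genes, 398 (2.19%) had astrocyte replicates at least as far apart. None of the 25 genes with a mean within 2-fold of that of Thbs1 in astrocytes did so. Their median distance, without regard to sign, was 0.18 on the log2 scale. The replicate with more Thbs1 was also the deeper library, with 102861667 counts against 50267809. The same held in neurons, where replicate 1 had 75601751 counts and replicate 2 had 55520161. In OPCs replicate 2 was the deeper and higher library, with 45077708 counts against 22265917. Its lead there rests on 25 Thbs1 counts against 10, with overlapping Poisson intervals. How many of the tested genes were higher in the deeper library of each cell type was not counted. CPM corrects for depth, and whether depth had a part in these differences was not tested.

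The neuron replicates were 5.40-fold apart, again with replicate 1 higher, and the log2 difference was 2.41. In neurons such gaps were more common: 970 other genes (5.33%) differed at least as much, and 294 of the 3568 genes within 2-fold of the Thbs1 mean (8.24%). In OPCs the order was the other way, with replicate 1 at 0.711 times replicate 2, a gap met or passed by 47.5% of other genes.

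**Figure D2:**
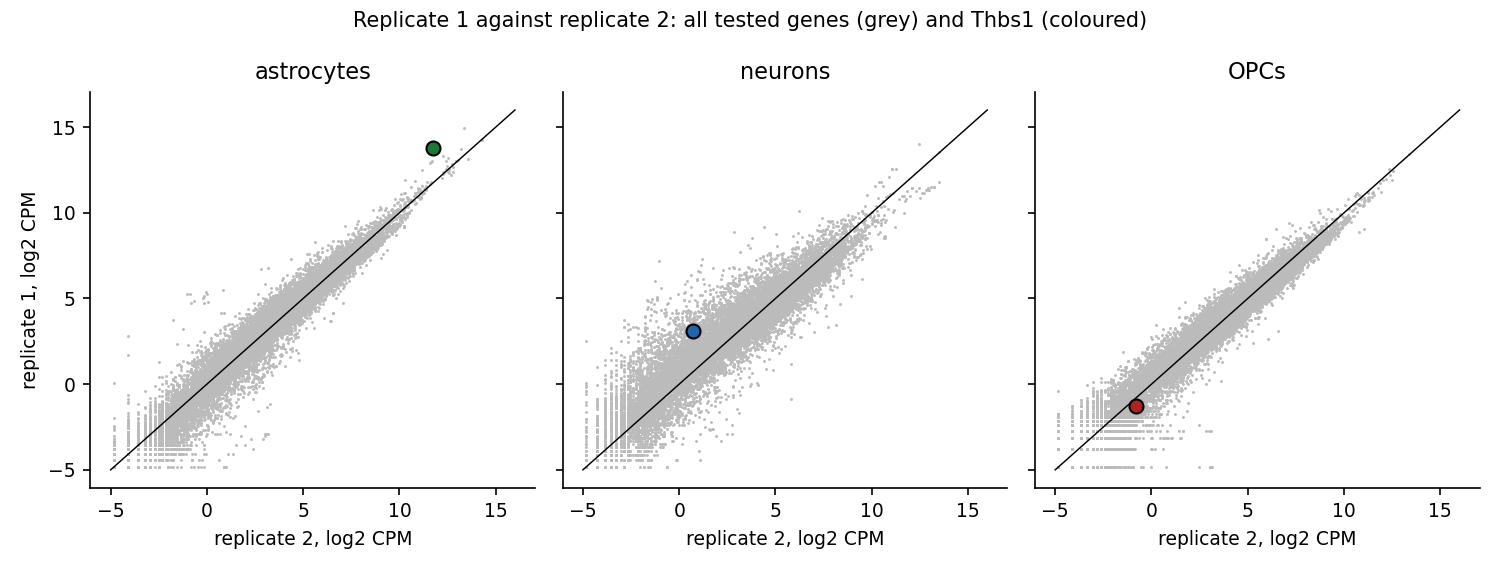
Replicate 1 (vertical axis) against replicate 2 (horizontal axis) of each cell type, in log2 CPM with a prior count of 2; grey points are the 18206 tested genes, the coloured point is Thbs1 and the line marks equality. Thbs1 lies above the line in astrocytes and neurons, by 2.03 and 2.41, and near it in OPCs.

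The higher level in neuron replicate 1 was shared by many genes that were low in OPCs beside astrocytes. Genes called lower in OPCs than in astrocytes with more than an 8-fold difference numbered 1735, Thbs1 among them. The spread of the neuron libraries entered these calls through the fit of all 6 libraries. Of these, 69.9% had a higher CPM in neuron replicate 1 than in replicate 2, with a median log2 difference of 0.76. Over all tested genes the share was 52.2% and the median 0.04. A fit of only the astrocyte and OPC libraries, added after the data were seen, gave a set of 1814 genes, 1713 of them shared, in which the share was 70.6% and the median 0.83. In neuron replicate 1 the median gene of the set stood at 7.71% of its astrocyte mean, and in replicate 2 at 4.14%. Thbs1, at 0.1005% and 0.0186%, was near the bottom of the set: 43 of the 1735 genes had a lower percentage in replicate 1 and 25 in replicate 2. The gene was picked for a wide difference of astrocytes over OPCs, and the astrocyte mean is the divisor here. Its place in the set is therefore a description. Whether astrocyte RNA in the neuron libraries had a part in the Thbs1 counts there was not tested.

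Neurons held far less Thbs1 RNA than astrocytes. The ratio of the means was 1679, and between single libraries the astrocyte level was 391 to 8641 times the neuron level. The log2 fold change was -10.71 ± 1.37 (SE, n = 2 each; edgeR quasi-likelihood test, Benjamini-Hochberg adjusted p = 0.00181). Lower calls in neurons covered 15.9% of tested genes, and calls in either direction 30.4%. In 36.8% of tested genes both neuron libraries lay below both astrocyte libraries. The astrocyte libraries also entered the choice of the gene, so this test is not independent of it. Among falls from astrocytes to neurons the fitted Thbs1 fall had rank 8 of 18206. Leaving out astrocyte replicate 1 gave -9.26 and leaving out astrocyte replicate 2 gave -11.38. Without neuron replicate 1 the value was -12.39 and without neuron replicate 2 it was -9.96, and the call held in each case. When libraries were scaled by total counts alone, the median log2 fold change over tested genes moved from -0.06 to 0.40. The share of calls on the higher side in neurons moved from 47.7% to 66.2%. Thbs1 was then at -10.15, or -10.55 relative to that median.

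In the comparison of OPCs with astrocytes, on which the gene was chosen, the ratio of the means was 18679, and single libraries differed between 6272 and 36134 times. The fitted log2 fold change was -14.16 ± 1.55 (SE), the second deepest fall among the tested genes. No threshold was part of the choice. Lower calls in OPCs covered 14.9% of tested genes, and both OPC libraries lay below both astrocyte libraries in 34.4%, which says nothing here about a gene picked on this contrast. Without astrocyte replicate 1 the fitted value was -12.70. Without astrocyte replicate 2 it was -14.81. With total counts alone it was -13.73, or -14.12 relative to a median of 0.39. The share of calls that were higher in OPCs was 58.6% with that scaling and 41.6% with TMM.

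Of the genes abundant in astrocytes, a minority fell under set limits in the other cells. A mean of at least 1000 CPM in astrocytes was reached by 124 tested genes. Of these, 18 had a mean under 10 CPM in neurons and 11 a mean under 1 CPM in OPCs. The same 11 met both limits, and Thbs1 was among them. Limits and set were chosen with the Thbs1 values known. The neuron and OPC limits lie above its means there, 5.15 and 0.463 CPM, and the astrocyte limit lies below its mean of 8648 CPM. That Thbs1 met all of them was thus fixed by the choice. The share of all tested genes under these limits was not counted. A mean lower than that of Thbs1 was held by 33.5% of tested genes in neurons and 15.5% in OPCs.

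**Figure D3:**
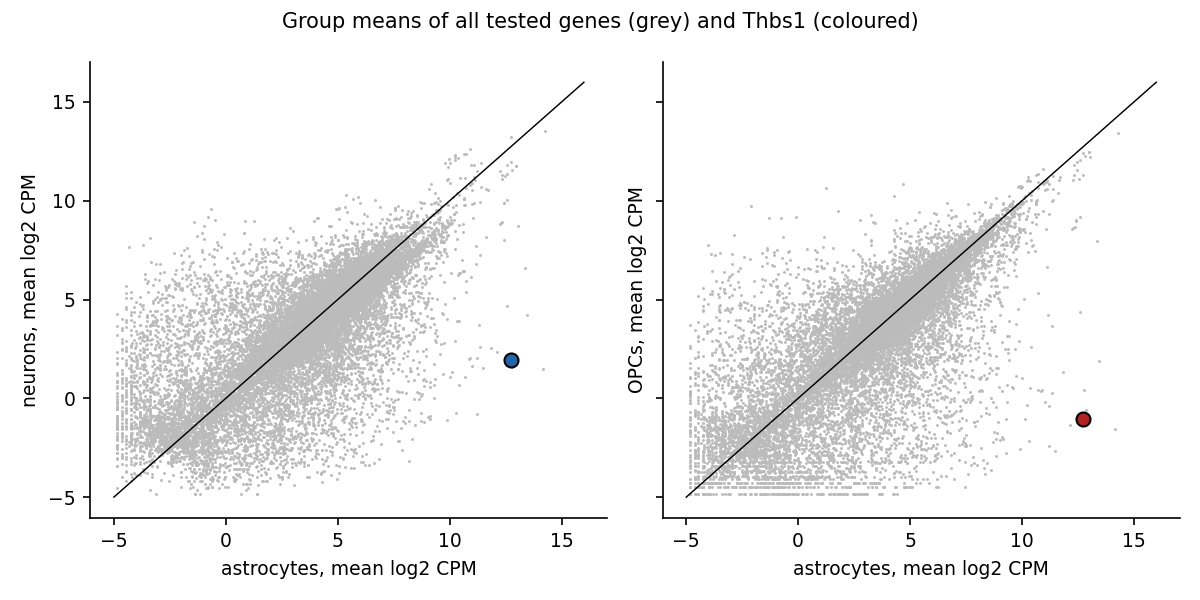
Mean log2 CPM (prior count 2, n = 2 libraries a group) of the 18206 tested genes in astrocytes (horizontal axes) against neurons (left) and OPCs (right); Thbs1 is the coloured point and the line marks equality. Thbs1 lies at the lower right in both panels, at a fitted log2 fold change of -10.71 in neurons and -14.16 in OPCs.

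Between neurons and OPCs the difference in Thbs1 did not pass the test. The neuron mean was 11.1 times the OPC mean, and single libraries differed between 2.97 and 22.6 times. The log2 fold change was 3.45 ± 1.06 (SE, n = 2 each; edgeR unadjusted p = 0.0137, adjusted p = 0.0793). Both neuron libraries lay above both OPC libraries, as was so for 29.7% of tested genes, and 7.73% of genes were called higher in neurons. Of the 1735 genes called more than 8-fold lower in OPCs than in astrocytes, 81.0% had a higher mean in neurons than in OPCs. Over all tested genes the share was 52.3%. In that set 343 genes (19.8%) were called higher in neurons than in OPCs and 14 lower. Over all tested genes 2260 were called in either direction, 62.3% of them higher in neurons. The set was defined by low OPC levels beside astrocytes. The OPC libraries entered the choice of the gene here too. A p above the threshold does not show that the levels were alike.

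The outcome of this comparison turned on the tool and on the neuron library used. DESeq2, run on the same genes, gave 3.51 ± 0.91 (SE) with an adjusted p of 0.00104. With limma-voom the value was 3.10 ± 1.25 (SE) and the adjusted p was 0.159, so the gene was not called. With edgeR and without neuron replicate 2 the log2 fold change was 4.19 (adjusted p = 0.0263), and without neuron replicate 1 it was 1.76 (adjusted p = 0.247). Over all 16 alternatives it stayed between 1.76 and 4.19, with adjusted p-values between 0.00104 and 0.308. In the order of levels, neurons and OPCs are thus neighbours whose difference did not pass the edgeR test with all libraries.

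**Figure D4:**
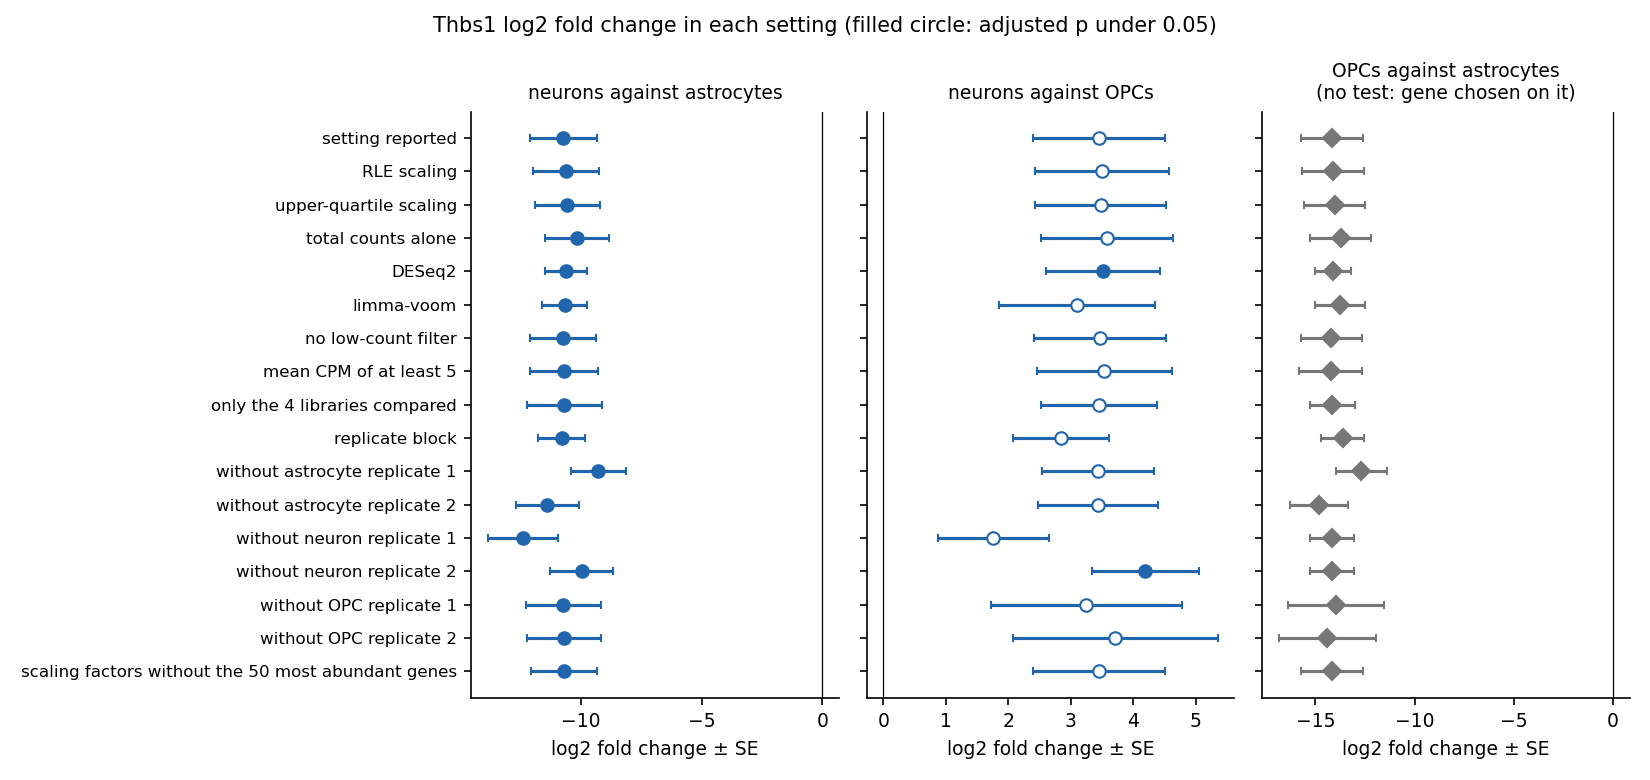
Log2 fold change of Thbs1 with its SE (horizontal axes, a separate scale in each panel) in the reported setting and 16 alternatives; filled circles have an adjusted p under 0.05, open circles do not, and grey diamonds show OPCs against astrocytes with no test. The values for neurons against astrocytes are all filled, and those for neurons against OPCs are filled only with DESeq2 and without neuron replicate 2.

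The genes whose pattern was most like that of Thbs1 were found by the root mean square difference between log2 CPM profiles over the 6 libraries, each centred on its own mean. This measure takes in the replicate differences as well as those between cell types. The 10 nearest genes lay 0.72 to 1.25 from Thbs1, against a median of 5.99 over all tested genes. The nearest was ENSRNOG00000015036, at 9367 and 5863 CPM in the astrocyte libraries, 5.83 and 1.70 CPM in the neuron libraries and 0.269 and 1.36 CPM in the OPC libraries. It had the same order of cell types as Thbs1, with a smaller gap between the astrocyte replicates and a wider one between the OPC replicates. The next was ENSRNOG00000003183, at 1791 and 882 CPM in astrocytes, 1.48 and 0.208 CPM in neurons and 0.154 and 0.238 CPM in OPCs. In this gene neuron replicate 2 lay between the OPC libraries.

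Astrocyte means of the 10 genes ran from 181 to 7615 CPM, neuron means from 0.225 to 6.20 and OPC means from 0.0108 to 1.40. Astrocyte replicate 1 was the higher in 8 of the 10, and neuron replicate 1 in 9. Both neuron libraries lay above both OPC libraries in 5 of the 10, against 29.7% of all tested genes, and 1 of the 10 was called higher in neurons than in OPCs, against 7.73%. The OPC sums behind these values were 1 to 111 counts, so their fitted falls in OPCs are imprecise. The genes were picked by this pattern, so these counts describe them and support nothing. With Pearson correlation as the measure of likeness, 2 of the 10 were kept.

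**Figure D5:**
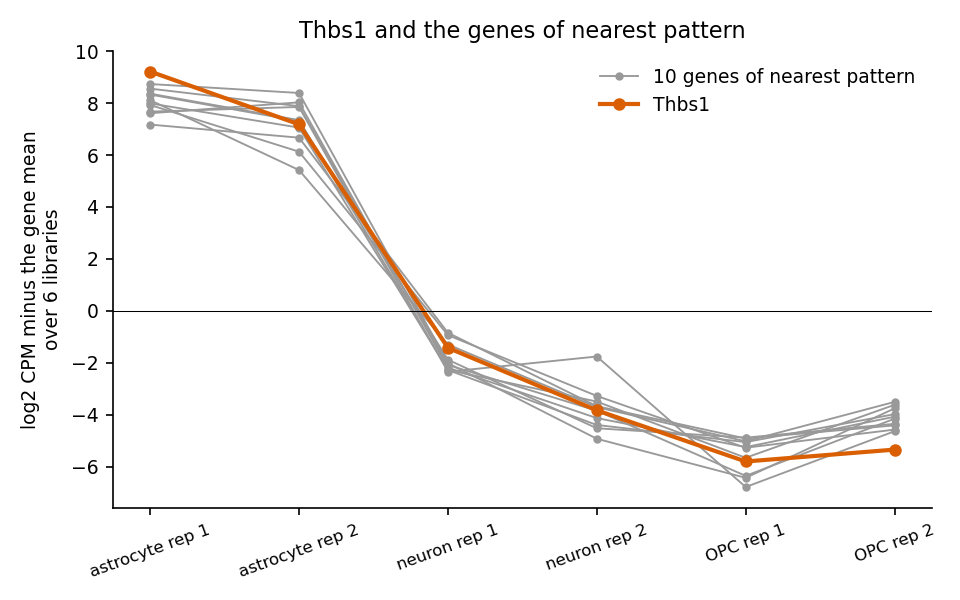
Log2 CPM (prior count 2) of Thbs1 and of the 10 genes of nearest pattern, each minus its own mean over the 6 libraries (vertical axis), by library (horizontal axis); lines join the values of 1 gene and imply no order of libraries. In Thbs1 and 8 of the 10 genes astrocyte replicate 1 is the highest library, and 9 of the 10 are higher in neuron replicate 1 than in replicate 2.

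The other thrombospondins, the receptors of thrombospondin 1, other synapse-promoting factors of astrocytes and the genes of TGF-beta signalling were not analysed here, since their identifiers in the table were not paired with names.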

How the data were processed

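The authors deposited a table of raw counts of genes in 6 libraries. Per the labels' protocols, total RNA was purified on columns, 250 ng of it went to a core facility, and sequencing was on an Illumina HiSeq. Aligner, counting tool, build and strand setting: not given in the sources used here. Columns were matched to samples by the label descriptions, and 0 columns were left out.

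The gene name table (GRCr8) paired 0 of 26405 identifiers with a symbol, so 14 gene lists were not run. The naming rule (Thbs1, list members and the 10 genes of nearest pattern) was applied without its need for a symbol, and 2 identifiers are printed. The gene, lists and tests were chosen with earlier results of these data known.

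Tests used edgeR 4.0.16 in R 4.3.3. The filterByExpr filter (minimum count 10, minimum total 15) left 18206 genes. A robust quasi-likelihood model of the 3 cell types, with TMM scaling, was fitted to all 6 libraries (3 residual degrees of freedom), with Benjamini-Hochberg adjustment over all tested genes and a threshold of 0.05. The SE is the log2 fold change divided by the square root of F. The steps were also run on simulated data. The changes planted there were far smaller than the fitted Thbs1 falls from astrocytes, so that run is no check on the Thbs1 values. With 2 libraries a group an exact permutation test cannot go below p = 0.333, so none was run. Alternatives were 3 other scalings, DESeq2 1.42.0, limma-voom (limma 3.58.1), 2 other filters, a replicate block, fits of 4 libraries, omission of each library, and scaling factors without the 50 most abundant genes.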

Additional observations from a re-analysis of the deposited data

How the results depend on the processing

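Thbs1 kept its direction in all 16 alternatives of each comparison, and for neurons against astrocytes also its call (highest adjusted p 0.00557). The gene was picked for a very wide difference, so this is no evidence of robustness. For neurons against OPCs it was called in 2 alternatives, DESeq2 (3.51) and without neuron replicate 2. Omission of single libraries gave 1.76 to 4.19 there, -12.39 to -9.26 for neurons against astrocytes and -14.81 to -12.70 for OPCs against astrocytes, where the library left alone is taken to vary as the other groups do. It also gave 3306 to 5996 genes called for neurons against astrocytes (5532 with all libraries), 116 to 2759 for neurons against OPCs (2260) and 2182 to 5831 for OPCs against astrocytes (4649). DESeq2 called 4031 genes for neurons against OPCs. Of the 10 genes of nearest pattern, 2 were kept with Pearson correlation, 9 with a prior count of 0.5 and 10 with total counts alone. For these changes the cause was not tested.

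With the replicate number as a block, the Thbs1 log2 fold change was -10.79 for neurons against astrocytes (edgeR adjusted p = 0.00422), 2.84 for neurons against OPCs (adjusted p = 0.0767) and -13.63 for OPCs against astrocytes, and 6467, 2445 and 4831 genes were called. Deviations of same-numbered libraries correlated over 18206 genes at 0.147 (astrocytes with neurons), 0.292 (astrocytes with OPCs) and 0.162 (neurons with OPCs). The labels do not say what a number marks. The precision of the OPC level is limited by its 10 and 25 counts.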
